A study of Mus musculus with 6 samples.

Results

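The thrombospondins are a family of large, secreted, calcium-binding glycoproteins, here Thbs1, Thbs2, Thbs3, Thbs4 and Comp, the cartilage oligomeric matrix protein, which is also called thrombospondin 5. They were taken by gene symbol from the deposited gene reports, and all 5 were found among 26458 symbols. RNA was sequenced from Thy1+HE- cells that were sorted from C57BL/6 mouse hearts 7 days after sham surgery (3 libraries) or after transaortic constriction (TAC, 3 libraries), which narrows the aorta and makes the left ventricle pump against a higher pressure. Thy1 is a surface protein of many heart fibroblasts, and HE is not spelled out in the labels. All mice were of the same strain, no age or sex is used here, and the labels do not say whether a library came from 1 heart or from pooled hearts, so the spread behind each p-value is that between libraries and may be technical.

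Thrombospondins link cells to the extracellular matrix and regulate how cells attach, how collagen is assembled and how growth factors are released, and they are called matricellular because they signal more than they bear load. Thbs1 and Thbs2 form trimers and carry type 1 repeats, through which they bind the receptor Cd36 and inhibit blood vessel growth, and Thbs1 can release active TGF-beta from its latent complex. Thbs3, Thbs4 and Comp form pentamers and lack type 1 repeats. Thbs4 is known from tendon, from muscle and from the injured heart, and Comp from cartilage and tendon, where it organises collagen fibrils.

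A coding stretch of each member is shown because it carries the family's kinship and the single-base differences by which reads are told apart. They are the stretch of 60 coding bases on which the 5 members are most alike, near the end of the coding sequence, in GENCODE's mouse transcripts (GRCm38). Capitals mark the 38 bases that are the same in all 5 members.
Thbs1: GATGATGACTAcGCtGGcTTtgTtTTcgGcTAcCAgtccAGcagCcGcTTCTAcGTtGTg
Thbs2: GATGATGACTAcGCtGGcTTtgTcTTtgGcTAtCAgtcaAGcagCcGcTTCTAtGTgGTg
Thbs3: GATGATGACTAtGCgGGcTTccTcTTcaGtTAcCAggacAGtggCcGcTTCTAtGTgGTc
Thbs4: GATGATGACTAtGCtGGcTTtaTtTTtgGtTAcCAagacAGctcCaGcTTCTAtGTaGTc
Comp: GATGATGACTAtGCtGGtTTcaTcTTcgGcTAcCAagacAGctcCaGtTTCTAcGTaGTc
The stretch lies in exon 19 of 22 of Thbs1 (chr2:118123327-118123386, plus strand), in exon 19 of 22 of Thbs2 (chr17:14670747-14670806, minus strand) and in exon 20 of 23 of Thbs3 (chr3:89224869-89224928, plus strand). In Thbs4 it lies in exon 19 of 22 (chr13:92755167-92755226, minus strand), and in Comp in exon 16 of 19 (chr8:70380164-70380223, plus strand). Over whole aligned coding sequences, the closest pair was Thbs4 and Comp with 67.2% identical bases, followed by Thbs3 and Comp with 65.8% and by Thbs1 and Thbs2 with 64.9%. The pair of Thbs1 and Thbs4 was the least alike, with 53.3%. The longest run of identical coding bases between Thbs4 and Comp was 26 bases, cagaccatgaacagtgaccctggcct, and that between Thbs1 and Thbs2 was also 26 bases. No stretch of 50 bases, the stated read length, was common to any of the members' transcripts. Of all 50-base stretches, 114 of 6022 of Thbs1 (1.89%) are also in Gm29233 and 182 of 5139 of Thbs3 (3.54%) also in Mtx1, both on the opposite strand, and none of those of Thbs2, Thbs4 and Comp occurs in another gene. The kit does not mark strand, and between 41.9% and 58.2% of each member's reads were forward. Reads from the shared stretches of Thbs1 and Gm29233, and of Thbs3 and Mtx1, therefore cannot be told apart.

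After TAC, Thbs4 and Comp were higher, and the 3 other members did not pass the test. Thbs4 rose from 34.6 ± 6.84 to 1240.3 ± 152 CPM (counts scaled to TMM library sizes, so that libraries of unlike depth can be compared; SD, n = 3 each), and Comp from 25.6 ± 5.03 to 120.3 ± 19.9 CPM. Thbs1, the member with the most reads in sham, was at 1871 ± 432 CPM in sham and 1956 ± 177 CPM in TAC. The test was edgeR's quasi-likelihood fit of 12612 genes, and calls were made below an adjusted p (Benjamini-Hochberg) of 0.05. All 5 members passed the filter on low counts. 2 of the 5 rose and none fell, beside 18.7% of all genes tested that were called, 8.28% higher and 10.4% lower in TAC. The same 2 members were higher in TAC with no overlap between the groups, as were 17.7% of all genes tested, and 36.2% had none in either direction. In RNA from many cells at once, fewer cells of a type and less RNA per cell cannot be told apart. Without sham replicate 2, 1454 genes in place of 2353 were called over the whole table.

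Thbs4 lies on chromosome 13 from 92751586 to 92794818 on the minus strand, in GRCm38. Its read counts were 55, 68 and 83 in sham replicates 1, 2 and 3 and 4362, 5657 and 3544 in TAC replicates 1, 2 and 3. In CPM these were 27.5, 35.2 and 41.2 in sham and 1338, 1317 and 1066 in TAC. The lowest TAC library stood far above the highest sham library. The log2 fold change was 5.16 ± 0.19 (SE), or 35.8-fold, with an edgeR adjusted p of 4.99e-11, rank 3 among all genes tested by log2 fold change. In TAC the deepest base of Thbs4 held 3.09 to 4.21 times its mean depth, against 6.92 to 7.48 times in sham. The ratio was lower in TAC in every other member too, for example 3.73 to 4.06 against 5.84 to 6.22 in Thbs3. The mean depth of Thbs4 was only 0.85 to 1.3 reads in sham against 55.4 to 88.45 in TAC. At such unlike depths the ratio cannot show a change in the shape of coverage.

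Comp lies on chromosome 8 from 70373548 to 70382066 on the plus strand. Its read counts were 58, 54 and 40 in sham replicates 1, 2 and 3 and 330, 605 and 395 in the TAC replicates. In CPM, sham was at 29.0, 28.0 and 19.8 and TAC at 101, 141 and 119. Again the groups did not overlap, and sham replicate 3 was the lowest of all. The log2 fold change was 2.23 ± 0.18 (SE), or 4.70-fold, with an edgeR adjusted p of 4.70e-07, which placed Comp at rank 103 by log2 fold change.

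**Figure D1:**
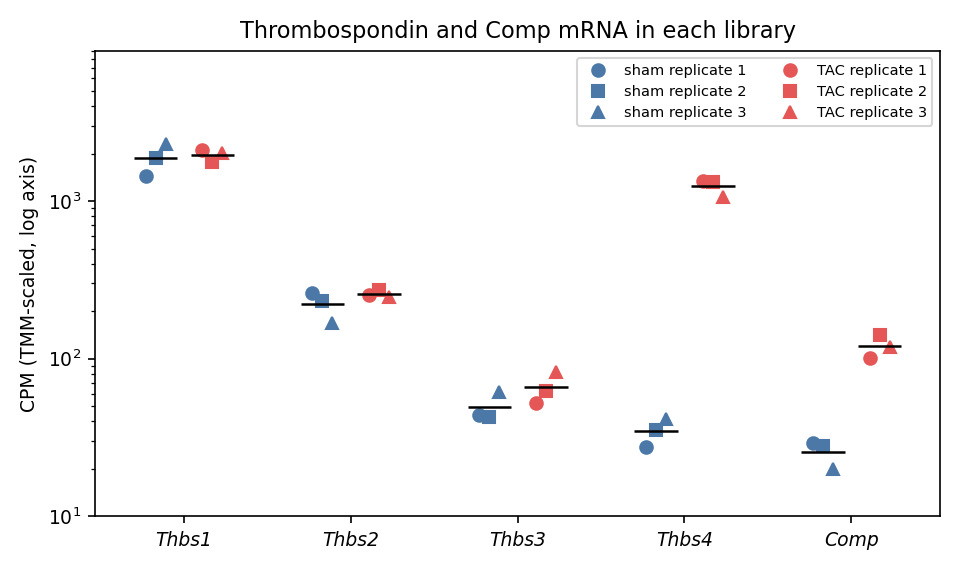
CPM of each member in the 6 libraries on a log axis, with sham in blue, TAC in red, a symbol per replicate and a black line at each group's mean. Thbs4 (27.5 to 41.2 CPM in sham, 1066 to 1338 in TAC) and Comp (19.8 to 29.0 and 101 to 141) separate by group, while the groups of Thbs1, Thbs2 and Thbs3 overlap.

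Thbs1 (chromosome 2, 118111876 to 118127133, plus strand) had 1435, 1878 and 2299 CPM in the sham replicates, in the order 1 to 3, and 2096, 1758 and 2016 CPM in the TAC replicates. All 3 TAC libraries lay inside the range of the sham libraries, which was wider. The log2 fold change was 0.06 with a 95% interval from -0.30 to 0.43 and an edgeR adjusted p of 0.831. It became -0.10 without sham replicate 1, the lowest sham library. This gene rests on 2866 to 7549 reads per library, the largest counts of the family.

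Thbs2 (chromosome 17, 14665500 to 14694262, minus strand), an inhibitor of blood vessel growth that also shapes collagen fibrils, was at 262, 232 and 169 CPM in sham and 254, 274 and 245 CPM in TAC. Sham replicate 3 was the lowest library and the other sham values lay near those of TAC. The log2 fold change was 0.22, with a 95% interval from -0.10 to 0.55 and an edgeR adjusted p of 0.335. Without sham replicate 3 it was 0.06. Thbs3 (chromosome 3, 89215180 to 89226841, plus strand), a pentamer-forming member that is less studied, was at 44.1, 42.5 and 61.5 CPM in sham and 52.2, 62.4 and 82.7 CPM in TAC. Replicate 3 was the highest library of Thbs3 in each group, and the groups overlapped. Its log2 fold change was 0.41, with a 95% interval from 0.00430 to 0.82. The unadjusted p was 0.0479 and the edgeR adjusted p 0.148, so that Thbs3 did not pass. Under the alternatives tried, its adjusted p ranged from 0.0548 to 0.440. Mtx1, the gene on the opposite strand, had 9 to 34 reads per library against 82 to 275 for Thbs3.

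**Figure D2:**
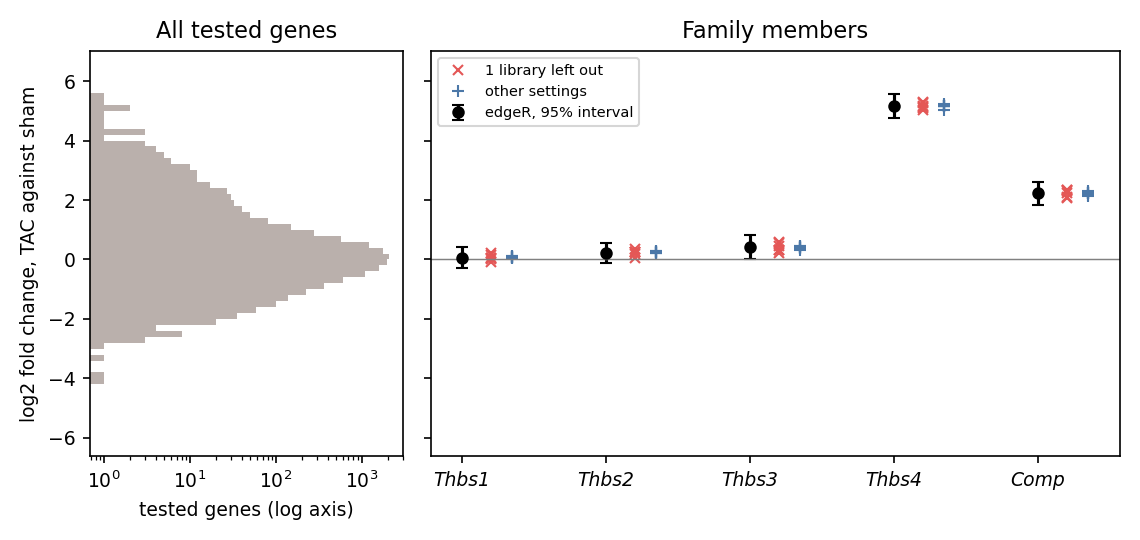
Left, the log2 fold changes of all 12612 tested genes, with the number of genes on a log axis; right, those of the 5 members as black points with 95% intervals, beside values with 1 library left out (red) and under other settings (blue). Thbs4 keeps a value of at least 5.01 and Comp of at least 2.07, and the other 3 members stay between -0.10 and 0.60.

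Levels of different genes can be compared only per length, and for this the deposited RPKM values (reads scaled to gene length and library depth) were used. In sham, Thbs1 was the highest with 325.0 ± 78.9 RPKM (SD, n = 3), followed by Thbs2 with 54.1 ± 11.1. Thbs3 had 15.8 ± 3.44, Thbs4 11.1 ± 2.34 and Comp 10.7 ± 2.04 RPKM. Thbs4 and Comp did not differ beyond their spread, and their order differed between the sham libraries. In TAC, Thbs4 had 395.4 ± 48.4 and Thbs1 337.3 ± 21.2 RPKM. Thbs4 was above Thbs1 in TAC replicates 1 and 2 and below it in replicate 3, with 341 against 349 RPKM, so these neighbours did not differ beyond their spread either. Thbs2 followed with 63.1 ± 5.20, Comp with 50.1 ± 9.82 and Thbs3 with 21.0 ± 5.20 RPKM. The values of Thbs2 and Comp overlapped in TAC, although Thbs2 was the higher in each library, whereas Comp and Thbs3 did not overlap. Ranked among all gene rows by RPKM, Thbs4 moved from between places 5157 and 6604 in the sham libraries to between places 138 and 230 in TAC. The row of Thbs2 is 4100 bases long against 5895 bases for its GENCODE transcript, so its RPKM depends on the shorter gene model. The other rows were 5802, 3145, 3142 and 2416 bases long for Thbs1, Thbs3, Thbs4 and Comp, against 5848, 3190, 3198 and 2416 bases.

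The family's summed RPKM was 340, 427 and 483 in the sham replicates and 879, 895 and 826 in the TAC replicates. It was 2.08 times as high in TAC, with a 2-sided exact permutation p of 0.1, the smallest that 3 against 3 libraries can give. Without Thbs4 the sum was 405.6 ± 69.8 in sham and 471.4 ± 12.0 in TAC (exact permutation p = 0.3). Thbs1 made up 71.5%, 77.7% and 82.9% of the family's RPKM in the sham libraries and 39.8%, 34.9% and 42.3% in TAC. Thbs4 made up 2.53%, 2.69% and 2.74% in sham and 46.9%, 48.3% and 41.3% in TAC. The share of Thbs4 in sham rests on only 55 to 83 of its reads per library, so its narrow spread there is not read further. The share of Comp went from 2.66 ± 0.885% to 5.77 ± 1.07%, that of Thbs2 from 13.6 ± 4.93% to 7.27 ± 0.444%, and that of Thbs3 from 3.79 ± 0.478% to 2.44 ± 0.698%. None of the 5 shares overlapped between the groups, each with an exact permutation p of 0.1 before and after adjustment. As shares of the family's summed counts, those of Thbs2 and Thbs3 did overlap, with changes of -3.42 and -0.43 percentage points in place of -6.28 and -1.36 (exact permutation p of 0.4 and 0.2). Shares of a fixed total are not independent, and the lower shares of Thbs1, Thbs2 and Thbs3 stand beside levels that did not pass the test.

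**Figure D3:**
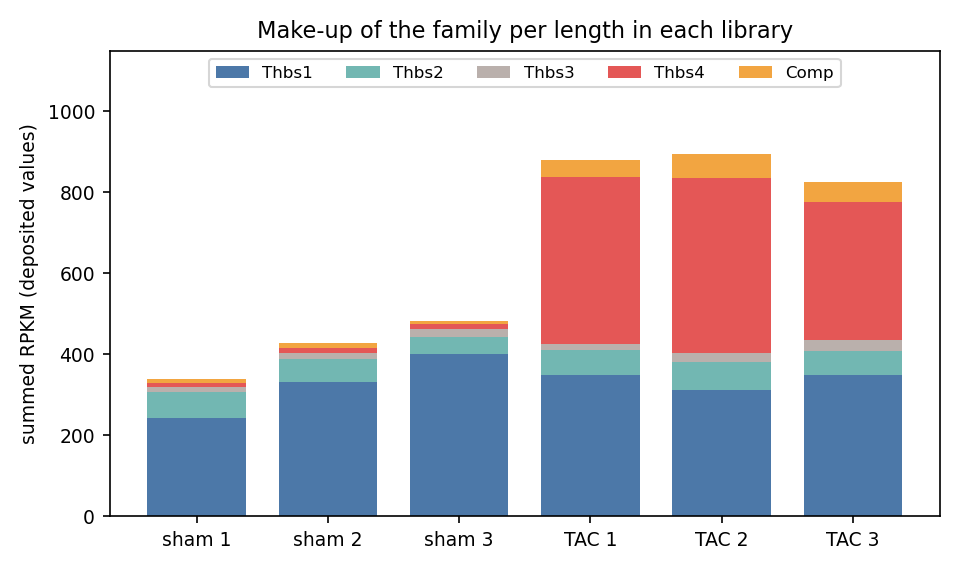
Deposited RPKM of the 5 members stacked for each library, so that the height of a bar is the family's summed RPKM. The bars are 340 to 483 high in sham, mostly Thbs1, and 826 to 895 in TAC, where Thbs4 alone takes 41.3% to 48.3%.

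The difference between the members' responses was measured as the change of the ratio of 2 members' counts within a library, which no library scaling affects. All 10 pairs were compared. 7 of them did not overlap between the groups, each with an exact permutation p of 0.1, or 0.143 after adjustment over the pairs. That p is the smallest 3 against 3 libraries can give, so no pair could pass. These 7 pairs are those that hold Thbs4 or Comp, the members called higher above, and are not 7 separate results. The log2 ratio of Thbs4 to Comp was -0.08, 0.33 and 1.04 in the sham replicates and 3.72, 3.22 and 3.16 in the TAC replicates. Thbs4 therefore rose by 2.94 ± 0.37 (SE) more than Comp on the log2 scale. The log2 ratio of Thbs1 to Thbs4 was 5.69 to 5.79 in sham and 0.42 to 0.92 in TAC, a change of -5.08 ± 0.15. The log2 ratio of Thbs2 to Comp was 3.16, 3.04 and 3.07 in sham and 1.33, 0.96 and 1.05 in TAC. Of the 10 pairs, these had the smallest SD in sham (0.053 and 0.063). They rest on 55 to 83 reads of Thbs4 and 40 to 58 of Comp per sham library, where counting error is large. Whether these members vary together within sham was not tested. Among Thbs1, Thbs2 and Thbs3 the 3 pairs overlapped between the groups, with changes of -0.16 ± 0.40 (Thbs1 to Thbs2), -0.32 ± 0.25 (Thbs1 to Thbs3) and -0.16 ± 0.41 (Thbs2 to Thbs3).

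The genes most like each member were those whose log2 CPM, centred over the 6 libraries, had the smallest root mean square difference from it. For Thbs4 these were Ddah1, an enzyme that degrades methylated arginines, with a difference of 0.16, Col11a1, a fibrillar collagen chain, with 0.21, and C1qtnf3 with 0.50. For Ddah1 the log2 fold change came to 5.07 ± 0.25 (SE), at an edgeR adjusted p of 1.60e-09. For Comp they were Nrep (listed as D0H4S114) with 0.21, and Ecrg4 (listed as 1500015O10Rik) and the imprinted gene Mest with 0.24 each. Nrep had a log2 fold change of 2.15 ± 0.16 and Mest of 2.18 ± 0.23, with edgeR adjusted p of 1.89e-07 and 7.81e-06. For the other members, which did not pass the test, 3 genes each differed by at most 0.0788 from the profile, among them Cd40 and Grk5 (listed as Gprk5) for Thbs1, Hdac2 for Thbs2, and Zdhhc8 and Atp5j for Thbs3. Among the members themselves, the most alike were Thbs1 and Thbs3 (0.29), and the least Thbs1 and Thbs4 (2.53). Thbs4 and Comp differed by 1.51. These are descriptions over 6 libraries, and both groups enter the likeness. The fold changes of the likest genes therefore follow from how they were chosen, and their adjusted p is no further evidence.

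The bases before the start site of Thbs4 are shown because this member had the largest rise. Those of Thbs2 are shown as an example of a member that did not pass. Thbs3 did not pass either, and its bases are described below but not printed. All are the 250 bases upstream in RefSeq's GRCm38.p6 table, which matched 3 of the 5 members (Thbs2, Thbs3 and Thbs4). Capitals mark matches, on either strand, to 6 motifs: the GC box (GGGCGG), the CCAAT box (CCAAT), the TATA box (TATAAA), the AP-1 site (TGANTCA), the M-CAT element that TEAD factors bind (CATTCC) and the SMAD box (CAGAC).
Thbs4, chr13:92794819-92795068, minus strand: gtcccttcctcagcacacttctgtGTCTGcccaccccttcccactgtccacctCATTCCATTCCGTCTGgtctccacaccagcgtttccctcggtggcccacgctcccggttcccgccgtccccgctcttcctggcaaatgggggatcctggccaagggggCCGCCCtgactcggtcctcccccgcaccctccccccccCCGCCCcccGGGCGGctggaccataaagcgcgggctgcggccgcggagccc
Thbs2, chr17:14694263-14694512, minus strand: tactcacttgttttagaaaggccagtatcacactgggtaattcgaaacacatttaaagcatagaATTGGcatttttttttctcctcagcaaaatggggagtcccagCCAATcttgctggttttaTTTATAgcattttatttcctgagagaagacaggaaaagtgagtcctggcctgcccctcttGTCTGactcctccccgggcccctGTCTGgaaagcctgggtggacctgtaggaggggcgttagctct
The sequence of Thbs4 held 70.8% G and C, that of Thbs3 58.8% and that of Thbs2 46.8%, beside a median of 52.4% over 32851 promoters. Thbs4 held 3 GC boxes, beginning 89, 51 and 42 bases before the start, and 32.7% of all promoters held at least 1. It also held 2 M-CAT elements in the capitals that begin 197 bases before the start and overlap by 1 base, a motif in 12.6% of all promoters. A SMAD box, in 42.2% of all promoters, began 226 and 186 bases before the start, the latter touching the M-CAT elements. Thbs2 held 2 CCAAT boxes (33.8% of all promoters), a TATA box 126 bases before the start (12.4%) and 2 SMAD boxes. Thbs3 held 1 GC box and 1 CCAAT box. The AP-1 motif, in 6.75% of all promoters, was not in these windows. A match describes letters only.

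Of the 10 nearest tested neighbours of the members on the chromosome, 3 rose and 1 fell. Over all genes tested 18.7% were called, 8.28% higher and 10.4% lower in TAC. For Thbs4 they were Serinc5, 39638 bases away, which did not pass (log2 fold change 0.24 ± 0.17, SE), and Tent2 (listed as Papd4), 351036 bases away, which rose by 0.68 ± 0.18 with an edgeR adjusted p of 0.0163. The neighbours of Comp were Crtc1, 285 bases away, at 0.27 ± 0.22, and Upf1 at 0.07 ± 0.26, neither past the threshold. Gpr176, the neighbour of Thbs1, rose by 3.14 ± 0.38 and Trim46, beside Thbs3, by 1.14 ± 0.36 (edgeR adjusted p of 2.60e-05 and 0.0354). Smoc2, the neighbour of Thbs2, fell by 1.03 on the log2 scale. Tent2 lost its call without sham replicate 2 or TAC replicate 1, and Trim46 without any 1 of the 6 libraries, with DESeq2 and with limma voom.

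Of 14 tested receptors and cell-surface partners of the thrombospondins, 1 rose and 3 fell, or 28.6% called beside 18.7% of all genes tested (8.28% higher, 10.4% lower), with a median log2 fold change of -0.17 beside 0.01 over all genes tested. Sdc1, a heparan sulfate proteoglycan of the cell surface, rose by 1.12 ± 0.21 (SE), while Vldlr, a lipoprotein receptor that can bind thrombospondins, had a log2 fold change of -1.12 ± 0.24, Sdc4 of -0.71 ± 0.17 and Cd47 of -0.55 ± 0.13. Cd47, the receptor of the C-terminal domain, went from 325.9 ± 9.57 to 222.9 ± 28.1 CPM, with an edgeR adjusted p of 0.00938. Sdc4 lost its call without sham replicate 3, with an edgeR adjusted p of 0.0578. Cd36, which binds the type 1 repeats of Thbs1 and Thbs2, did not pass, with 49.6 ± 21.5 CPM in sham against 35.5 ± 6.34 CPM in TAC. Lrp1, which clears thrombospondins from outside the cell, did not pass either, with 2952 ± 458 and 2304 ± 246 CPM. The integrin chains Itgav, Itgb1, Itgb3, Itga3, Itga4 and Itga6 did not pass.

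Among 17 tested genes of TGF-beta and its latent complex, 4 rose and 3 fell, or 41.2% called beside 18.7% of all genes tested, with a median log2 fold change of -0.07. Ltbp2, a microfibril protein, rose by 3.31 ± 0.19 (SE), the ligand Tgfb3 by 1.32 ± 0.14, Ltbp3, which tethers latent ligand, by 0.84 ± 0.13, and Tgfb1 also rose. Tgfbr3, a co-receptor, had a log2 fold change of -1.18 ± 0.16, and Ltbp1 and Ski fell as well. Ski lost its call without sham replicate 2, sham replicate 3, TAC replicate 2 or TAC replicate 3 and without the filter on low counts, with adjusted p of 0.0628 to 0.117 there.

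Thbs4 can bind the part of Atf6 that lies inside the endoplasmic reticulum, where Atf6 is a sensor of unfolded protein. Of 16 tested genes linked to Atf6, 3 rose and 1 fell, or 25.0% called, near the 18.7% of all genes tested, with a median log2 fold change of 0.33. The disulfide isomerases Pdia6, Pdia4 and Pdia3 rose by 0.73 ± 0.15, 0.48 ± 0.13 and 0.41 ± 0.13 (SE), and Atf6 itself had -0.53 ± 0.15. The number of calls was 1 without sham replicate 2 or without TAC replicate 2 and 2 without sham replicate 3. Of these genes, Pdia6 kept its call in every alternative run. Hspa5, the chaperone BiP, had 1357 ± 375 CPM in sham against 1283 ± 239 CPM in TAC, and Xbp1 and Ddit3 did not pass either.

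Of the matrix partners of the family, 9 of 16 were tested, and 8 rose and none fell, beside 8.28% of all genes tested that rose, with a median log2 fold change of 1.45. The list was chosen with earlier results of these libraries known, so its count is not independent evidence of its direction. Col12a1, which Comp binds, rose by 2.89 ± 0.17 (SE) and Fn1, fibronectin, by 2.51 ± 0.20. Col1a2 rose by 1.45 ± 0.19, and the proteoglycan core Acan by 2.86 ± 0.41. Acan had 2 to 6 reads in the sham libraries and a log2 fold change of 1.23 when taken as log2(RPKM + 1). It passes the filter on low counts through the TAC libraries, so its rise is favoured and its place in the count of 8 is limited by that. Matn2, a matrilin, was the tested partner that did not pass, at 333.6 ± 26.2 and 314.3 ± 40.2 CPM. The chains of collagen IX, Col2a1, Matn1, Matn3 and Matn4 were too low to be tested, and Matn1 had no reads in any library.

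Of 8 tested proteases that can cleave thrombospondins or Comp, none rose and 3 fell, all of the ADAMTS family, beside 10.4% of all genes tested that fell. Adamts5 had a log2 fold change of -1.22 ± 0.14 (SE), Adamts1, which cleaves Thbs1 and Thbs2, of -0.91 ± 0.15 and Adamts4 of -0.91 ± 0.15. Adamts1 went from 1404 ± 199 to 749.5 ± 81.4 CPM. Adamts7 and Adamts12, which degrade Comp, were at 8.42 ± 0.398 and 71.2 ± 6.71 CPM in sham and at 11.2 ± 4.66 and 91.6 ± 14.2 CPM in TAC, and did not pass. Type 1 repeats also occur in many secreted proteins outside the family. Of 34 tested, 7 rose and 9 fell, beside 8.28% of all genes tested that rose and 10.4% that fell, with a median log2 fold change of -0.20, and Adamts1, Adamts4 and Adamts5 are counted here again. The called genes with the lowest edgeR adjusted p were Ccn4 (listed as Wisp1, 3.50 ± 0.21), the netrin receptor Unc5b (1.65 ± 0.14), Cilp (2.37 ± 0.21) and Ccn5 (listed as Wisp2, 2.29 ± 0.21).

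**Figure D4:**
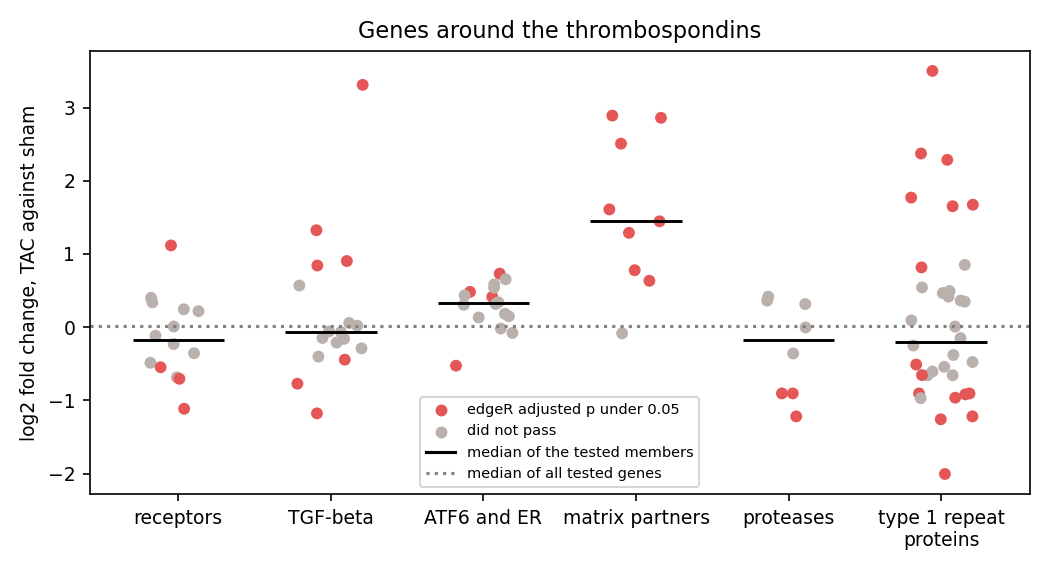
Log2 fold change of each tested gene in the 6 lists around the family, with genes past the edgeR threshold in red, the list's median as a black line and the median of all tested genes dotted. The matrix partners have a median of 1.45 and the other lists lie between -0.20 and 0.33.

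Markers of other cell types were summed in the same libraries. The counts of called markers stand beside 8.28% of all genes tested that rose and 10.4% that fell. Of all genes tested, 36.2% had no overlap between the groups in either direction. The fibroblast sum was 21857 to 30465 CPM in sham and 33018 to 40429 CPM in TAC, without overlap. All 9 fibroblast markers were tested, of which 3 collagen genes rose and 4 fell, and Thy1, the sorted marker, did not pass, with 133.6 ± 10.8 CPM in sham against 177.6 ± 27.6 CPM in TAC. Pdgfra went from 948.1 ± 25.8 to 546.4 ± 24.2 CPM. Tendon and cartilage genes, a setting in which Thbs4 and Comp are abundant, summed to 224 to 264 CPM in sham and 512 to 679 in TAC, where Fmod alone was at 377.7 ± 59.1 CPM. Of these 10 genes 4 were tested, and 2, Fmod and Acan, rose. Acan had 4, 2 and 6 reads in the sham replicates. It passes the filter on low counts through the TAC libraries, so its rise is favoured. Sox9, at 131.5 ± 25.8 CPM in sham and 149.0 ± 23.6 CPM in TAC, did not pass. Chad did not pass either, with 23.2 ± 10.1 CPM in sham and 19.9 ± 5.91 CPM in TAC. The tendon markers Scx, Tnmd and Mkx together had at most 3 reads in any sham library, and in the TAC libraries Scx had 8, 11 and 17 reads, Tnmd 4, 37 and 17 and Mkx at most 2. The part of such cells in the rise of Thbs4 and Comp was not tested. Platelets store Thbs1, and the platelet markers summed to 8.51 to 14.4 CPM in sham and 10.2 to 14.7 in TAC, with 1 of 6 tested and none called. Macrophage markers summed to 12.4 to 29.5 CPM in sham and 35.9 to 104 in TAC, highest in TAC replicate 3. Of the 6 macrophage markers tested 3 were called higher, C1qb, C1qc and Mrc1, each with at most 8 reads in any sham library. These 3 pass the filter on low counts through the TAC libraries, so a rise among them is favoured. C1qb was at 5.83, 5.82 and 28.6 CPM in the TAC replicates, and Ptprc had 0 reads in sham. The part of these cells in the results was not tested. Pericyte and smooth muscle markers summed to 2624 to 4324 CPM in sham and 1032 to 2268 in TAC, where 1 of 9 rose and 3 fell. Pericyte, endothelial, Schwann cell and epicardial sums were lower in TAC with no overlap between the groups, and cardiomyocyte sums overlapped. Most of the endothelial sum was Tek, at 194.7 ± 4.72 CPM in sham and 95.1 ± 8.78 CPM in TAC. Of the 6 tested, Tek and Esam (listed as Esam1) were called lower and Erg higher, the last from 3, 2 and 7 sham reads. Like Acan, Erg passes the filter on low counts through the TAC libraries, so its rise is favoured. Without Tek the endothelial sum was 59.3 ± 30.7 CPM in sham and 74.4 ± 17.7 CPM in TAC, with overlap (exact permutation p = 0.4, chosen after seeing the data). Counts on genes were 1909337 to 2056097 per sham library and 3351479 to 4207312 per TAC library. They were 25.4% to 34.1% of the matched reads in sham and 38.7% to 43.2% in TAC, again without overlap, and the part of this difference in the results was not tested. With all libraries thinned to the smallest, the log2 fold changes of Thbs4 and Comp were 5.17 and 2.18.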

How the data were processed

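RNA-seq read counts and RPKM per gene were deposited for each library in NextGENe 2.3.3 reports, per the file headers. The mm10 build and Partek 6.6 stand in the submitters' processing notes without roles; the handling of reads with several matches is not known here. Per the labels' protocols, reads were single-ended, from a kit without strand information. The deposited coverage values (mean and highest base depth) describe signal along a gene. Deposited counts were tested with edgeR 4.0.16 (R 4.3.3; TMM, filterByExpr, quasi-likelihood, Benjamini-Hochberg), sham against TAC, 3 libraries each, after tests on simulated data. CPM are counts over TMM-scaled library sizes. Deposited RPKM served for levels between genes. Ratios within a library used a prior count of 0.5 and exact permutation tests over libraries (Python 3.11.15). Intervals are 95%. Coding sequences were aligned with mafft 7.526. Alternatives used DESeq2 1.42.0 and limma 3.58.1. Named genes are all members, the 3 likest genes with a mean of at least 5 CPM, the nearest tested gene on either side, and from each list the 4 called genes with the lowest adjusted p; other list genes and the promoter motifs were chosen after their values or sequence were seen. The members and lists were chosen with earlier results of these data known. A count of 3 reads is worth 0.713 to 1.57 CPM, for counting error only.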

Additional observations from a re-analysis of the deposited data

How the results depend on the processing

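Thbs4 and Comp kept their direction and their call in all 15 alternatives, with log2 fold changes of 5.01 to 5.30 and 2.07 to 2.34, and Thbs1, Thbs2 and Thbs3 passed in none. Leaving out each library in turn gave a log2 fold change of -0.10 to 0.23 for Thbs1, which reversed without sham replicate 1. The difference of response of Thbs1 minus Thbs2 ranged from -0.47 to 0.19, reversed without sham replicate 3, and that of Thbs2 minus Thbs3 from -0.51 to 0.0545, reversed without sham replicate 1 (0.0470) and without TAC replicate 3. The platelet marker sum (TAC minus sham) ranged from -0.94 to 1.999 CPM, the cardiomyocyte sum from -65.2 to 49.5 CPM and the log2 fold change of Upf1 from -0.23 to 0.26, each reversed without sham replicate 1 or TAC replicate 3. The endothelial sum was 15.1 CPM higher in TAC without Tek. Genes called numbered 1454 to 2261 with a library left out, lowest without sham replicate 2, beside 2353, and 2886 without the filter on low counts. The ATF6-linked list held 1 to 4 calls with a library left out and 3 to 6 under the other settings, with 1 without sham replicate 2 or TAC replicate 2 and 2 without sham replicate 3. The causes were not tested. The replicate numbers are not said to pair the samples, and same-numbered libraries correlated by 0.08, 0.03 and -0.09. With a replicate block, 2346 genes were called, and the log2 fold changes were 5.16 for Thbs4, 2.23 for Comp, 0.41 for Thbs3, 0.24 for Thbs2 and 0.09 for Thbs1. Not every library correlated best with its own number. Thinning to the smallest library and leaving out Tek were chosen after seeing the data. Sham counts of 40 to 88 reads limit the precision of Thbs4, Comp and 2 of the 3 sham values of Thbs3.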
